A study of Mus musculus with 32 samples.

Results

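The sarcomeric myosin heavy chains are the motor proteins of the thick filament in striated muscle. The family was taken as 9 named genes (Myh1, Myh2, Myh3, Myh4, Myh6, Myh7, Myh7b, Myh8 and Myh13) of the 43035 genes in each count table. It was described by the level of each gene and its share of total sarcomeric myosin in whole-muscle libraries, and by the traces found in sorted cells. All 9 genes were present in the tables. All 9 passed the filter on low counts in whole muscle, and 6 passed it in sorted cells.

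A muscle fibre is typed largely by the heavy chain it makes. In adult mouse limb muscle Myh4 encodes the fast type IIB chain, Myh1 the fast type IIX chain, Myh2 the fast type IIA chain and Myh7 the slow type I chain, which is also a cardiac chain. Myh3 encodes the embryonic and Myh8 the perinatal chain, both of which return for a time in newly formed fibres of regenerating muscle. Myh6 encodes the alpha cardiac chain, Myh13 a chain of extraocular and laryngeal muscle, and Myh7b a slow-type chain found in heart and in some specialised muscles.

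RNA-seq had been done on mice that carry an inducible DUX4 gene and on wild-type (WT) mice. DUX4 is a transcription factor of the early embryo whose misexpression in muscle causes facioscapulohumeral muscular dystrophy. There were 32 libraries in 8 groups: DUX4 whole muscle at 2 weeks (IDUX.2Weeks, n = 5), WT whole muscle at 2 weeks (WT.2Weeks, n = 5), DUX4 and WT whole muscle at 16 weeks (IDUX.16Weeks and WT.16Weeks, n = 4 each), and sorted cells of hind limb muscle. The sorted groups were CD31+ endothelial cells (CD31DUX, n = 4, and CD31WT, n = 3) and PDGFRa+ fibro-adipogenic progenitors, or FAPs (PDGDUX, n = 4, and PDGWT, n = 3). Mice of every group, WT included, were fed chow with doxycycline, the inducer. The group names give 2 or 16 weeks and do not say from when the weeks are counted. The sources used here do not say which muscles were taken for the whole-muscle libraries, what drives the transgene, the strain, age or sex of the mice, or the time point of the sorted cells. They also do not say that the libraries are from different animals, so p-values measure only the spread between these libraries, which may be technical.

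Library totals ran from 6071276 to 20666816 counts. Values are CPM, the counts of a gene relative to the library's total after scaling by the trimmed mean of M-values, and replicates are numbered in order of accession. The scaling factors of whole muscle were 0.922 to 1.29 with DUX4 and 0.832 to 0.940 in WT at 2 weeks. At 16 weeks they were 1.08 to 1.23 with DUX4 and 0.856 to 0.951 in WT, without overlap. The 10 libraries of 2 weeks formed 2 sets by genes that mark position in the body. Replicates 1 to 3 of both genotypes had Hoxd8 at 51.2 to 73.5 CPM and Hoxc10 at 0 to 0.0918 CPM, while replicates 4 and 5 had Hoxd8 at 4.49 to 5.56 CPM and Hoxc10 at 58.5 to 78.0 CPM. Because of these 2 sets, results at 2 weeks are also given within each set. The 8 libraries of 16 weeks had both genes. Hoxd8 was at 22.7 to 44.7 CPM with DUX4 and 43.3 to 51.5 CPM in WT. Hoxc10 was at 39.7 to 52.8 CPM with DUX4 and 63.0 to 82.1 CPM in WT, without overlap. Whether the genotypes of 16 weeks also differ in the muscles taken was not tested. WT.16Weeks replicate 4 stood apart from its group, with the X-linked RNA Xist at 1.18 CPM against 142 to 302 CPM in the other whole-muscle libraries. WT.16Weeks replicate 1 also stood apart, with a chi-square per degree of freedom over genes of 97.04 to 168 against replicates 2 to 4, which differed from each other by 15.7 to 20.9. Results at 16 weeks were also computed without each of them.

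Of the 9 genes 6 lie in 1 cluster on chromosome 11 of GRCm38 (mm10), all on the plus strand and in the order Myh3 (chr11:67078300-67102291), Myh2 (chr11:67171027-67197517), Myh1 (chr11:67200052-67224575), Myh4 (chr11:67238029-67260446), Myh8 (chr11:67277124-67308634) and Myh13 (chr11:67321658-67371586). Myh2 ends 2534 bases before Myh1 starts, Myh1 ends 13453 bases before Myh4, and Myh4 ends 16677 bases before Myh8. Myh3 is the most distant, with 68735 bases between it and Myh2. The cardiac pair Myh6 (chr14:54941921-54966927) and Myh7 (chr14:54970684-54994626) lies on the minus strand of chromosome 14 with 3756 bases between the genes, and Myh7b (chr2:155611212-155634307) lies on the plus strand of chromosome 2.

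The RefSeq promoter windows of the 9 genes (250 bases before to 50 bases after the RefSeq start, GRCm38.p6) were compared because neighbours in the cluster moved in opposite directions in these data. Runs of at least 8 bases common to the windows of Myh1, Myh2, Myh4 and Myh8 were looked for. Their presence in all 4 was therefore fixed by this choice. A run of 14 bases, TTCTAATTATATCC, was found in these 4 windows and in no other of 27025 windows (4 windows, 0.0148%). A second run of 9 bases, TCAAATTAT, lay upstream of it in the same 4 windows and was found in 50 windows in all (0.185%). In these 4 windows both runs lie on the strand of transcription, and all 27025 windows were searched on both strands. The stretches around them are shown to let the 4 neighbours be compared, in lower case with both runs in capitals, 5′ to 3′ on the plus strand of chromosome 11.
Myh2, chr11:67170842-67170945: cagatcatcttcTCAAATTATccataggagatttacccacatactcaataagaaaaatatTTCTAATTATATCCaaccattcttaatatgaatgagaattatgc
Myh1, chr11:67199882-67199985: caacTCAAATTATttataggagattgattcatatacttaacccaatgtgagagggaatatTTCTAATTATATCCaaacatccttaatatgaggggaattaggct
Myh4, chr11:67237594-67237697: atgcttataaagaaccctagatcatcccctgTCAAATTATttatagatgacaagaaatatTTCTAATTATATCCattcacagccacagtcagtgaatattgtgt
Myh8, chr11:67277010-67277113: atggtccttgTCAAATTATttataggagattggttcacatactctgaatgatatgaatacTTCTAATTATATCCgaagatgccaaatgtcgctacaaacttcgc
The 2 runs were 47 bases apart in Myh1, 39 in Myh2, 41 in Myh8 and 20 in Myh4. Myh4, which was lower in DUX4 muscle, and Myh8, which was higher, share both runs, and neither run is in the window of Myh3, which was also higher. The E-box CANNTG, a motif bound by the myogenic basic helix-loop-helix factors, was found 3 times in the window of Myh4, 2 times in that of Myh8, 1 time in that of Myh3 and not in those of Myh1 and Myh2. It occurs in 72.2% of all windows. The TATA box letters TATAAA were found in the windows of Myh1, Myh2, Myh3, Myh4, Myh6 and Myh8 and in 14.2% of all windows (both motifs searched on both strands). These matches describe letters in a window and are no evidence of binding.

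The paralogs also share transcript sequence, which bears on how reads of 50 bases can be assigned. Of all 50-base words on the longest coding transcript, 32.1% of those of Myh1, 28.9% of those of Myh2, 18.9% of those of Myh4 and 21.4% of those of Myh8 occurred in another gene, mostly a neighbour in the cluster. The share was 28.2% for Myh7 and 22.6% for Myh6, where the other gene was mostly the partner on chromosome 14. It was 8.45% for Myh13, 4.81% for Myh3 and 0% for Myh7b. Levels of the adult fast chains relative to each other therefore depend on how the authors' estimated counts divided shared reads. Reads were paired, so these shares of single words do not give the share of read pairs that match another gene as well.

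In WT muscle of 2 weeks the order of levels per kilobase of coding transcript was Myh4 at 6806 CPM per kb, Myh1 at 2143 and Myh2 at 565, and the ranges of these 3 genes did not overlap. Slow Myh7 stood at 30.6 CPM per kb, with a range of 1.5 to 78.0, which overlapped the ranges of Myh8 (8.38), Myh3 (5.10), Myh6 (4.16), Myh13 (3.50) and Myh7b (1.18). In WT muscle of 16 weeks Myh4 again led at 8590 CPM per kb, above all other chains in every library. Myh1 (942), Myh2 (683) and Myh7 (417) followed with overlapping ranges between neighbours, then Myh6 (77.2) below the range of Myh7. Myh3 (4.88), Myh8 (4.77), Myh7b (3.26) and Myh13 (1.62) were lowest, each overlapping its neighbour in this order. In DUX4 muscle of 2 weeks the order was Myh4 (3920), Myh1 (1751), Myh2 (308), Myh8 (47.6), Myh7 (33.8) and Myh3 (23.4), then Myh6 (4.22), Myh13 (2.17) and Myh7b (1.07), and the range of Myh4 (2864 to 6484) overlapped that of Myh1 (1001 to 2966). In DUX4 muscle of 16 weeks it was Myh4 (2635), Myh1 (1285), Myh2 (602), Myh7 (368), Myh6 (65.0), Myh3 (27.8), Myh8 (19.2), Myh7b (4.23) and Myh13 (1.34), where the lowest Myh4 library (1372) lay within the range of Myh1 (1183 to 1448). The group range of Myh4 thus stood clear of that of Myh1 in both WT groups and in neither DUX4 group. Within each library Myh4 was above Myh1 in DUX4 muscle too. The lowest ratio of Myh4 to Myh1 per kb with DUX4 was 1.06 at 2 weeks and 1.12 at 16 weeks. Summed over the 9 genes, the family took 4.72% to 5.92% of all counts in WT muscle of 2 weeks and 5.53% to 5.93% at 16 weeks.

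**Figure D1:**
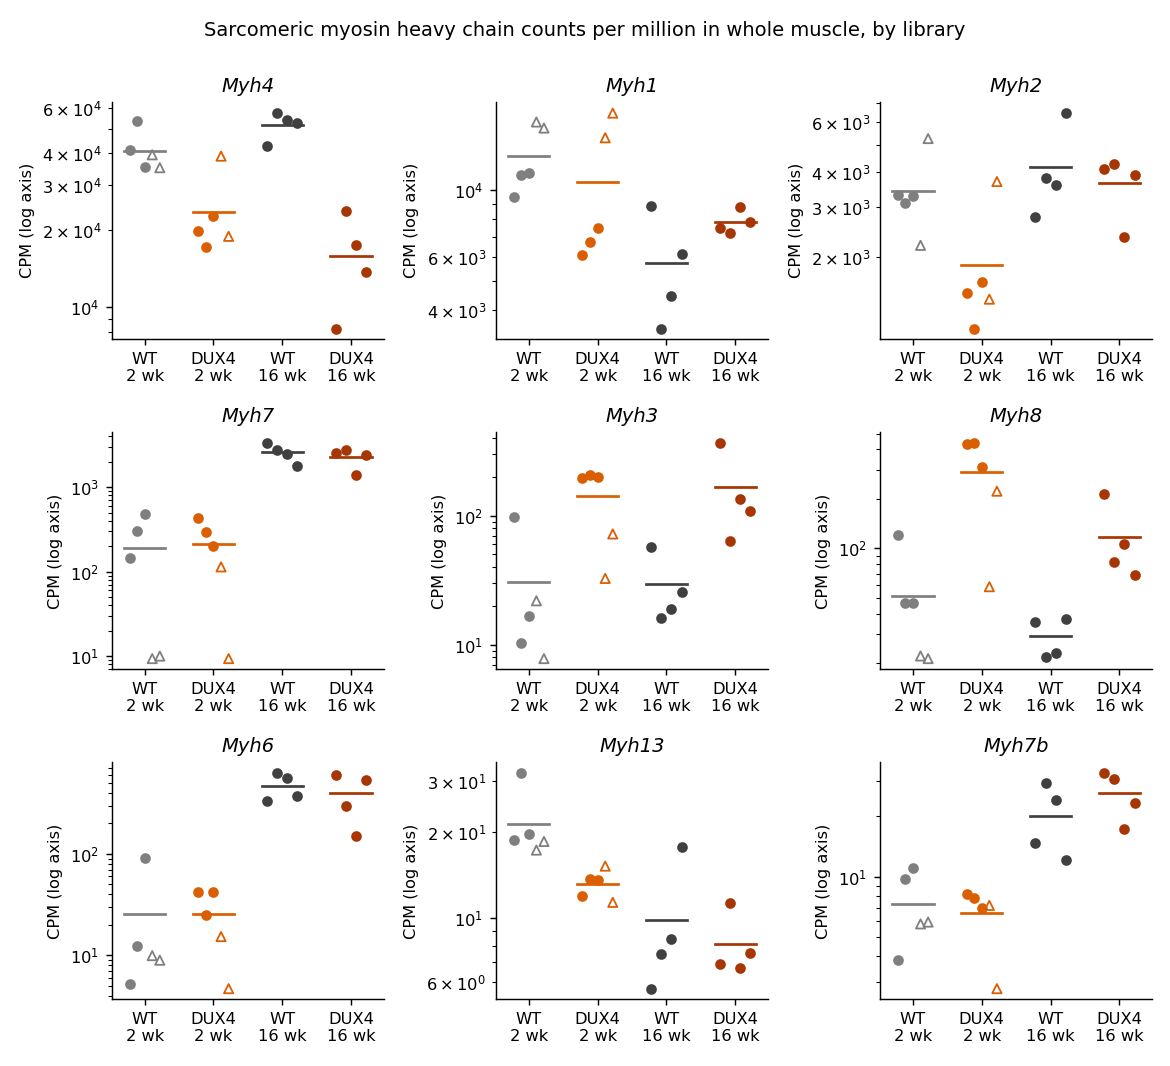
CPM of the 9 genes in each whole-muscle library on a log axis, 1 panel per gene, with a horizontal line at the group mean. Filled circles are replicates 1 to 3 at 2 weeks and all libraries at 16 weeks, and open triangles are replicates 4 and 5 at 2 weeks. Myh4 at 16 weeks separates the genotypes (8254 to 23871 CPM with DUX4, 42821 to 57464 CPM in WT), and Myh7, Myh6 and Myh7b separate the times.

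At 2 weeks 3 of the 9 genes changed in DUX4 muscle. Fast IIB Myh4 fell, and the developmental chains Myh3 and Myh8 rose. Over all genes tested 11.2% were higher and 6.47% lower in this comparison, against 2 and 1 of the 9 here. The median log2 difference of the 9 genes was -0.13 and that of all genes -0.01. With a term for the 2 sets of libraries 4 genes were called, Myh4, Myh3, Myh8 and Myh2 (for Myh2 -0.93 ± 0.30, adjusted p = 0.0380).

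Myh4 stood at 19920, 17227, 22821, 39006 and 18945 CPM in the 5 DUX4 libraries of 2 weeks and at 41401, 53368, 35349, 39471 and 35143 CPM in the 5 WT libraries. DUX4 replicate 4 lay within the WT range, and the other 4 DUX4 libraries lay below it. Myh4 was lower by a log2 difference of -0.80 ± 0.27 (SE; edgeR quasi-likelihood test, adjusted p = 0.0477, n = 5 and 5). Leaving out any 1 library except IDUX.2Weeks replicate 4 ended this call, with adjusted p up to 0.122. Over all 10 refits the log2 difference ran from -1.05, without that library, to -0.68. In replicates 1 to 3 alone the difference was -1.17 ± 0.30 (adjusted p = 0.0219), and in replicates 4 and 5 alone it was -0.36 ± 0.45 (adjusted p = 0.813).

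Embryonic Myh3 was measured at 195, 206, 200, 32.6 and 72.1 CPM in DUX4 muscle of 2 weeks and at 97.1, 10.3, 16.7, 21.9 and 7.83 CPM in WT muscle. The 3 highest DUX4 values were those of replicates 1 to 3, and WT replicate 1 lay above DUX4 replicates 4 and 5. The log2 difference was 2.19 ± 0.72 (edgeR, adjusted p = 0.0452), and it was 2.21 in replicates 1 to 3 alone and 1.81 in replicates 4 and 5 alone, neither past the threshold (adjusted p = 0.0870 and 0.378). Of the 10 refits without 1 library, 8 ended the call, and those without IDUX.2Weeks replicate 4 or WT.2Weeks replicate 1 kept it. The adjusted p reached 0.102, and over all 10 refits the log2 difference ran from 1.95 to 3.31, the highest without WT.2Weeks replicate 1.

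Perinatal Myh8 read 431, 437, 313, 58.4 and 223 CPM in the DUX4 libraries and 121, 46.6, 46.7, 22.1 and 21.3 CPM in the WT libraries of 2 weeks. Only DUX4 replicate 4 lay within the WT range. The log2 difference was 2.50 ± 0.54 (edgeR, adjusted p = 0.00450), and the call held in all 10 refits without 1 library, where the adjusted p was at most 0.0141. Within the sets the difference was 2.41 ± 0.46 in replicates 1 to 3 (adjusted p = 0.00433) and 2.70 ± 0.64 in replicates 4 and 5 (adjusted p = 0.0571).

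The other adult fast chains did not pass the test at 2 weeks. Myh2 was 1494, 1120, 1633, 1422 and 3701 CPM with DUX4 and 3317, 3108, 3297, 2203 and 5249 CPM in WT, so that 4 DUX4 libraries lay below every WT library and replicate 5 did not. Before scaling, DUX4 replicate 3 (1870 CPM) lay above WT replicate 4 (1830 CPM). The log2 difference of Myh2 was -0.87 ± 0.32 (edgeR, adjusted p = 0.0702). It passed without IDUX.2Weeks replicate 5 (adjusted p = 0.00513) and within replicates 1 to 3 (-1.25 ± 0.30, adjusted p = 0.0146). Myh1 read 6087, 6710, 7458, 14934 and 18038 CPM with DUX4 and 9516, 11258, 11444, 16854 and 16088 CPM in WT. Here the set of replicates 4 and 5 lay above that of replicates 1 to 3 in both genotypes, and the log2 difference was -0.29 ± 0.31 (adjusted p = 0.567). Myh13 read 11.3 to 15.2 CPM with DUX4 and 17.2 to 31.99 CPM in WT. Its groups did not overlap in these scaled values. Before scaling they overlapped, at 11.7 to 17.6 CPM with DUX4 and 14.3 to 27.8 CPM in WT. With a log2 difference of -0.69 ± 0.25 Myh13 did not pass (adjusted p = 0.0697).

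Slow Myh7 at 2 weeks was 434, 292, 204, 114 and 9.33 CPM with DUX4 and 143, 304, 486, 9.33 and 9.99 CPM in WT. Replicates 4 and 5 were the lowest of each genotype. The log2 difference was 0.15 ± 0.89 (edgeR, adjusted p = 0.936), with an interval of 2 SE to either side that ran from -1.63 to 1.92. Myh6 (4.70 to 42.1 CPM with DUX4, 5.23 to 90.5 CPM in WT) and Myh7b (2.76 to 8.24 and 3.84 to 11.02 CPM) had overlapping groups and log2 differences of 0.02 ± 0.71 and -0.13 ± 0.33.

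**Figure D2:**
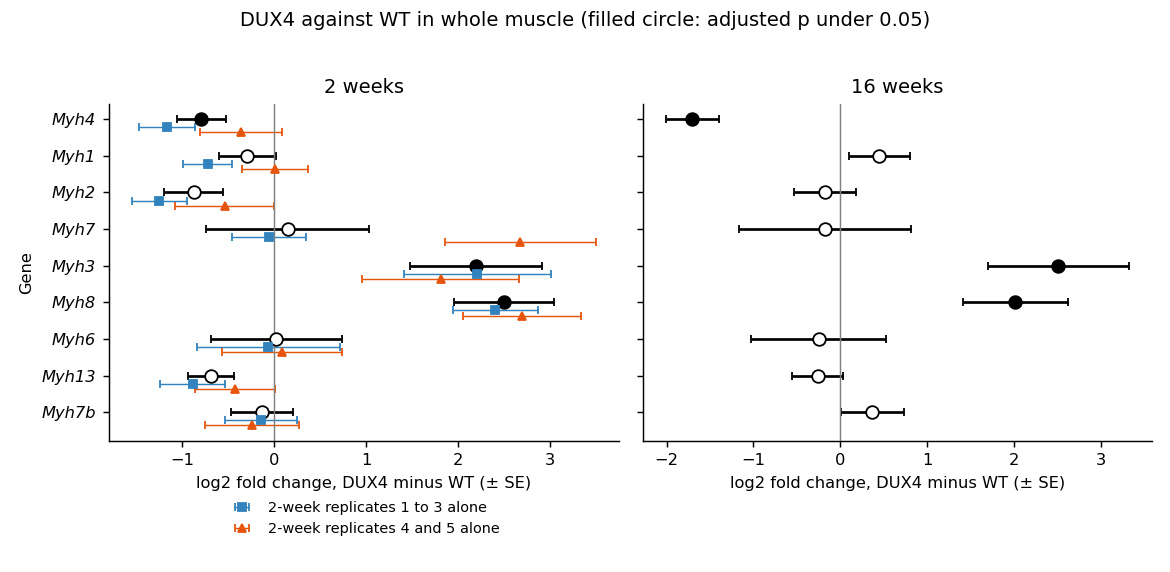
Log2 fold change of each gene, DUX4 minus WT, with its SE, at 2 weeks (left) and 16 weeks (right). Black circles are the fit on all libraries, filled where the adjusted p was under 0.05, and at 2 weeks squares and triangles are the same difference within replicates 1 to 3 and within replicates 4 and 5. Myh4 is filled on the lower side and Myh3 and Myh8 on the higher side at both times.

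At 16 weeks the same 3 genes changed in the same directions, and the groups of each did not overlap. Over all genes tested 14.1% were higher and 12.5% lower, against 2 and 1 of the 9. The median log2 difference was -0.18 for the 9 genes and 0.01 for all genes. The comparisons at 2 and 16 weeks share no library, but they share 1 model and its estimate of the spread.

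Myh4 stood at 8254, 23871, 17572 and 13716 CPM in DUX4 muscle of 16 weeks and at 42821, 57464, 53935 and 52496 CPM in WT muscle. Every DUX4 library lay below every WT library. The log2 difference was -1.70 ± 0.30 (edgeR, adjusted p = 0.000760, n = 4 and 4), and none of the 8 refits without 1 library ended the call (log2 differences of -1.98 to -1.49, adjusted p at most 0.00386). The drop at 16 weeks minus that at 2 weeks was -0.91 ± 0.40, with an unadjusted p of 0.0353 and an adjusted p of 0.251. None of the 9 genes passed this test of the difference between the times, in which 0.188% of all genes were higher and 0.11% lower. The unadjusted p of Myh4 was the only one of the 9 under 0.05, and DESeq2 and limma voom also called 0 of the 9.

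Myh3 read 363, 64.0, 134 and 109 CPM with DUX4 at 16 weeks and 57.3, 16.1, 18.9 and 25.6 CPM in WT, a log2 difference of 2.51 ± 0.82 (edgeR, adjusted p = 0.0318). Myh8 read 213, 82.6, 107 and 69.2 CPM with DUX4 and 35.4, 21.8, 22.9 and 37.2 CPM in WT, a log2 difference of 2.01 ± 0.60 (adjusted p = 0.0203). DUX4 replicate 1 was the highest library for both genes and the lowest for Myh4. Without it the log2 differences were 1.79 for Myh3 (adjusted p = 0.124) and 1.56 for Myh8 (adjusted p = 0.0783), so that neither passed. The calls of both genes were also lost without WT.16Weeks replicate 2 or replicate 3, and that of Myh3 without WT.16Weeks replicate 4. Without WT.16Weeks replicate 1 all 3 calls held, with log2 differences of -1.79 for Myh4, 3.06 for Myh3 and 2.12 for Myh8 (adjusted p = 0.000938, 0.0254 and 0.0369).

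The remaining chains did not pass the test at 16 weeks. Myh1 was 7458, 7196, 8805 and 7804 CPM with DUX4 and 8870, 3461, 4449 and 6122 CPM in WT, where WT replicate 1 exceeded every DUX4 library. Its log2 difference was 0.45 ± 0.35 (edgeR, adjusted p = 0.363). Myh2 ranged from 2366 to 4276 CPM with DUX4 and from 2771 to 6455 CPM in WT, with a log2 difference of -0.18 ± 0.36. Myh7 ranged from 1406 to 2780 and from 1809 to 3336 CPM, with a difference of -0.18 ± 0.99. The values of Myh6 (-0.25 ± 0.78), Myh13 (-0.26 ± 0.29) and Myh7b (0.37 ± 0.36) were also within the spread of their libraries.

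Along the chromosome 11 cluster the direction did not follow position. Myh4 was lower and its downstream neighbour Myh8, 16677 bases on, was higher at both times, and the upstream neighbour Myh1 had no called difference at either time. Myh3 at one end of the cluster rose and Myh13 at the other end was not called.

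**Figure D3:**
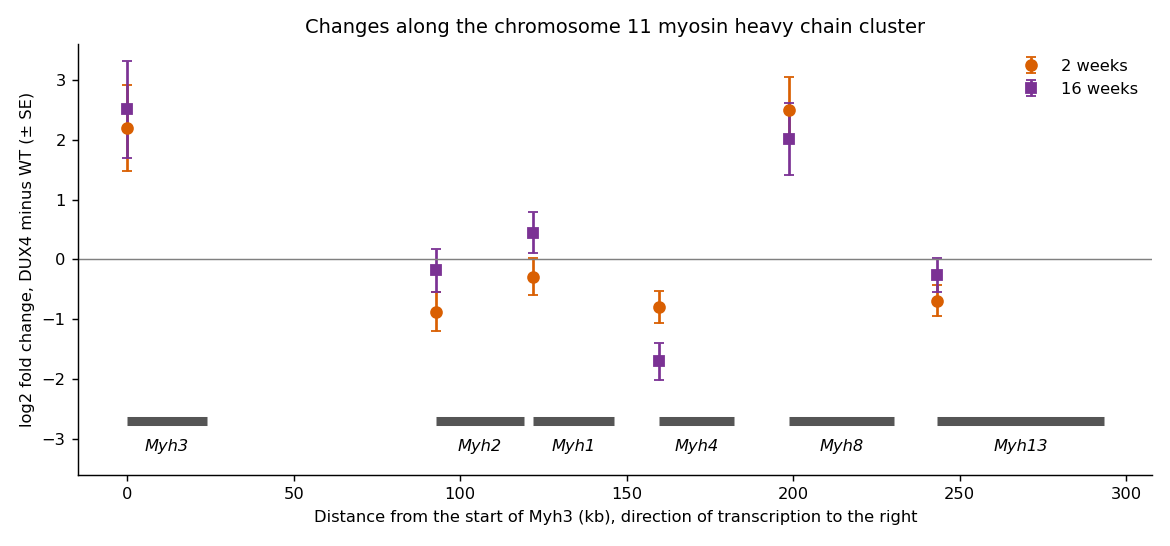
Log2 fold change, DUX4 minus WT, with its SE, of the 6 genes of the chromosome 11 cluster, placed by distance in kb from the start of Myh3. Circles are 2 weeks, squares are 16 weeks, and bars at the bottom mark the genes. Myh3 and Myh8 stand above 0 and Myh4 below 0 at both times, and Myh2 lies near Myh4 at 2 weeks and near 0 at 16 weeks.

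Noncoding genes in and beside the cluster were measured too. Myhas, an antisense RNA that overlaps Myh1 and starts 456 bases before Myh4 on the opposite strand, was at 38.3 ± 25.4 CPM with DUX4 and 50.9 ± 24.6 CPM in WT at 2 weeks, and at 34.5 ± 15.3 and 20.2 ± 16.4 CPM at 16 weeks (SD; edgeR, adjusted p = 0.643 and 0.370). The antisense gene 9430073C21Rik, which overlaps the end of Myh2, was higher in DUX4 muscle of 16 weeks (22.3 ± 3.20 against 9.33 ± 5.91 CPM, log2 difference 1.24 ± 0.37, adjusted p = 0.0198) and not at 2 weeks (adjusted p = 0.823). The long noncoding gene 2310065F04Rik, between Myh3 and Myh2, was lower at 16 weeks (18.2 ± 6.55 against 89.3 ± 57.5 CPM, log2 difference -2.29 ± 0.66, adjusted p = 0.0168). Its WT libraries of 16 weeks read 11.2, 82.2, 123 and 141 CPM, so that WT replicate 1 lay below the DUX4 mean. At 2 weeks 2310065F04Rik read 27.8, 14.8, 30.7, 88.8 and 22.4 CPM with DUX4. In WT it read 55.1, 53.9, 75.6, 143 and 50.5 CPM, and only DUX4 replicate 4 lay within that range. Whether the counting used strand is not given in the sources used here, so reads of an antisense gene and of the heavy chain it overlaps cannot be told apart.

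The share of each chain in the summed sarcomeric myosin, in counts per kb, was compared for the 4 adult chains at both times (8 exact permutation tests, 2-sided, p-values not adjusted). A share can change because another chain changes. At 16 weeks Myh4 made up 35.3%, 62.2%, 57.8% and 48.4% of sarcomeric myosin transcripts in the DUX4 libraries and 73.8%, 84.5%, 83.1% and 78.2% in the WT libraries. The means were 50.9% ± 11.9 and 79.9% ± 4.87 (SD, n = 4 each; exact p = 0.0286, the smallest that 4 against 4 allows). Fast IIX Myh1 made up 31.6%, 18.5%, 28.7% and 27.2% with DUX4 and 15.1%, 5.03%, 6.79% and 9.02% in WT, with means of 26.5% ± 5.60 and 8.99% ± 4.41 (exact p = 0.0286). Both separations were complete, while the CPM of Myh1 overlapped between the groups.

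Myh2 made up 12.4% ± 4.08 of sarcomeric myosin with DUX4 and 6.31% ± 2.17 in WT at 16 weeks, and Myh7 7.57% ± 2.57 and 3.94% ± 1.22 (exact p = 0.0571 for each), with overlapping groups. The developmental chains stayed a small part of the whole even where they rose. Myh3 made up at most 1.55% and Myh8 at most 0.892% in any DUX4 library of 16 weeks, both in replicate 1. At 2 weeks the shares of the 4 adult chains overlapped between the genotypes. Myh4 made up 64.6% ± 10.3 with DUX4 and 70.9% ± 6.48 in WT (n = 5 each; exact p = 0.310), and Myh1 28.0% ± 9.12 and 22.6% ± 5.80 (exact p = 0.317). Myh8 reached 1.65% in replicate 2 with DUX4 at 2 weeks. The family as a whole took 3.35% to 5.12% of all counts in DUX4 muscle of 2 weeks and 2.81% to 4.17% at 16 weeks, the latter below every WT library of that time.

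**Figure D4:**
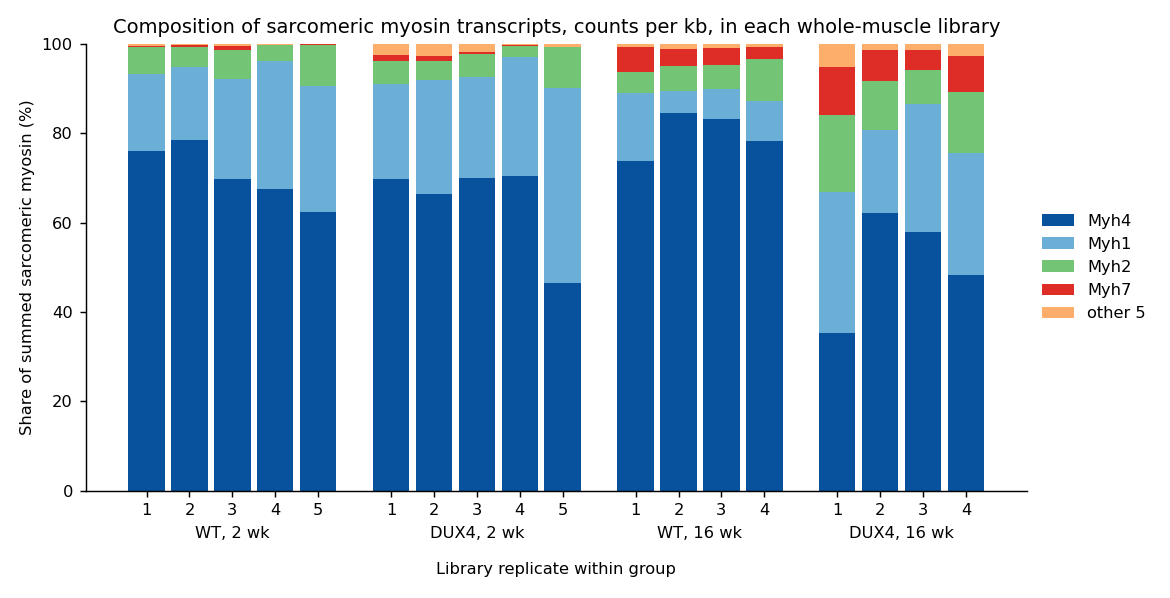
Stacked share of summed sarcomeric myosin transcripts (percent, counts per kb) in each of the 18 whole-muscle libraries, by group and replicate, with the 5 minor chains added together. At 16 weeks the Myh4 share lies between 35.3% and 62.2% with DUX4 and between 73.8% and 84.5% in WT, and Myh1 fills most of the difference.

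The balance between chains differed between groups. The ratio of Myh4 to Myh1, per kb, was 2.07 ± 0.94 in DUX4 muscle of 16 weeks (1.12 to 3.35) and 10.6 ± 5.08 in WT muscle of that time (4.88 to 16.8), and these ranges did not overlap. At 2 weeks it was 2.54 ± 0.88 with DUX4 and 3.38 ± 1.17 in WT. The ratio of perinatal Myh8 to embryonic Myh3 was 2.12 ± 0.57 in DUX4 muscle of 2 weeks (1.53 to 3.03) and 0.81 ± 0.32 at 16 weeks (0.58 to 1.27), again without overlap. In WT muscle it was 2.41 ± 1.39 (0.99 to 4.44) and 1.14 ± 0.37 (0.61 to 1.43), with overlapping ranges. These ratios are descriptions of the libraries and were not tested.

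The slow and cardiac chains differed between the times in both genotypes. In WT muscle Myh7 was higher at 16 weeks than at 2, with a log2 difference of 3.77 ± 1.01 (edgeR, adjusted p = 0.0235), Myh6 by 4.22 ± 0.81 (adjusted p = 0.00517) and Myh7b by 1.48 ± 0.35 (adjusted p = 0.0122). Myh1 was lower, with -1.19 ± 0.34 (adjusted p = 0.0294) and so was Myh13, with -1.14 ± 0.28 (adjusted p = 0.0143). That is 3 of 9 genes higher and 2 lower, where 7.9% of all genes were higher and 5.68% lower. In a fit of the WT groups alone Myh6 passed (adjusted p = 0.0369) and Myh1, Myh7, Myh13 and Myh7b did not (adjusted p = 0.0582, 0.0772, 0.0829 and 0.0541). In DUX4 muscle Myh7 (3.44 ± 0.997, adjusted p = 0.0461), Myh6 (3.94 ± 0.80, adjusted p = 0.00773) and Myh7b (1.98 ± 0.35, adjusted p = 0.00355) were higher at 16 weeks and none was lower, against 4.83% and 2.42% of all genes.

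The time difference cannot be told apart from a difference in the muscles taken, since the libraries of 2 and 16 weeks also differed in Hoxd8 and Hoxc10. Within 2 weeks, Myh7 was 143 to 486 CPM in replicates 1 to 3 and 9.33 to 114 CPM in replicates 4 and 5, and at 16 weeks it was 1406 to 3336 CPM. Against replicates 1 to 3 alone the WT difference of Myh7 was 3.05 ± 0.42 (adjusted p = 0.000465), and against replicates 4 and 5 alone it was 8.07 ± 1.01 (adjusted p = 0.00389). For Myh6 these differences were 3.68 and 5.64, and for Myh7b 1.29 and 1.78, the last not past the threshold (adjusted p = 0.104). Without WT.2Weeks replicate 1 or WT.16Weeks replicate 1 the WT call of Myh7 was lost (adjusted p at most 0.0542), and each of the 9 refits of DUX4 muscle without 1 library ended its Myh7 call (adjusted p of 0.0550 to 0.0938). The WT call of Myh1 was lost without WT.2Weeks replicate 5, WT.16Weeks replicate 2 or WT.16Weeks replicate 3 (adjusted p at most 0.0771).

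Other cardiac transcripts were near 0 where Myh6 was high. Of 6 cardiac markers (Nppa, Nppb, Myl7, Tnni3, Mybpc3 and Ryr2) the summed level was 0.57 to 1.63 CPM at 2 weeks and 0.91 to 2.03 CPM at 16 weeks. Myl7 was at 0 in every library, and only 1 of the 6 had enough counts to be tested. Myh6 was 298 CPM or more in 7 of the 8 libraries of 16 weeks, beside Myh7 at a Myh6 to Myh7 ratio per kb of 0.17 ± 0.07 with DUX4 and 0.19 ± 0.06 in WT. With 22.6% of its 50-base words shared with Myh7, how much of the Myh6 count comes from Myh7 reads was not tested.

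The 3 genes that were higher in the libraries of 16 weeks host microRNAs, whose mature forms were not measured here. They are shown because the pair in Myh6 and Myh7 has 1 seed (bases 2 to 8, in capitals, RefSeq, GRCm38.p6), and the one in Myh7b differs from it in the last seed base.
mmu-miR-208a-3p, in Myh6, minus strand, chr14:54949072-54949093: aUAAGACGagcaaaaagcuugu
mmu-miR-208b-3p, in Myh7, minus strand, chr14:54975710-54975731: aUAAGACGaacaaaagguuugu
mmu-miR-499-5p, in Myh7b, plus strand, chr2:155622893-155622913: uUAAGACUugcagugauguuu

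Across the 18 whole-muscle libraries the members fell into groups by their log2 CPM, given as descriptions over libraries that share genotype and time. Myh6 and Myh7b (r = 0.93), Myh6 and Myh7 (r = 0.90) and Myh7 and Myh7b (r = 0.86) went together, and Myh3 went with Myh8 (r = 0.86). Myh4 went against Myh3 (r = -0.81) and Myh8 (r = -0.72), and Myh1 against Myh7 (r = -0.79). Among 9394 genes the closest to Myh4 were Mybpc2 (r = 0.96), the fast myosin binding protein, Mstn (0.95), which encodes the growth inhibitor myostatin, C2cd2 (0.95) and Atp2a1 (0.94), the calcium pump of fast fibres. Closest to Myh7 were slow troponins Tnnc1 and Tnnt1 (0.99 each), the slow light chain Myl2 (0.96) and Tpm3 (0.96). Closest to Myh3 were Myl4 (0.94), Ncam1 (0.93), Chrng (0.93) and Myog (0.93). Myh1 (Rsph3a, Adamts9, Ahcy and Sdhaf2, 0.80 to 0.82) and Myh2 (Klhl34, Slc6a8, Alpk3 and Coq8a, 0.80 to 0.86) had weaker likenesses.

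The partners of the fast chains were lower in DUX4 muscle. Of 10 genes of the fast fibre programme 8 fell at 2 weeks, with a median log2 difference of -0.78, and 6 fell at 16 weeks, with a median of -0.65. Over all genes tested 6.47% were lower at 2 weeks and 12.5% at 16 weeks. Actn3, the fast alpha-actinin, fell from 5465 ± 545 to 2019 ± 1151 CPM at 2 weeks (log2 difference -1.44 ± 0.30; edgeR, adjusted p = 0.00312) and from 8308 ± 2151 to 2062 ± 723 CPM at 16 weeks (-2.01 ± 0.34, adjusted p = 0.000504). Atp2a1 fell by 0.89 and 1.27 on the log2 scale at the 2 times, and the fast troponin Tnnt3 fell by 0.68 and 0.89.

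Of 8 general and fast fibre markers 5 fell at 2 weeks (Atp2a1, Ckm and Tnnt3 with the smallest p) and 5 at 16 weeks (Atp2a1, Tnnt3 and Ckm). This list is not independent of the fast fibre programme, since Mylpf, Tnnt3, Tnnc2 and Atp2a1 are in both. The falls of Atp2a1, Tnnt3 and Tnnc2 at both times were already counted there. Only Ckm and Acta1 at 2 weeks, and Ckm and Tcap at 16 weeks, were further calls. The share of all genes called lower was 6.47% at 2 weeks and 12.5% at 16 weeks. The summed level of the 8 (Acta1, Ckm, Tcap, Mb, Mylpf, Tnnt3, Tnnc2 and Atp2a1) was 44099 to 85220 CPM with DUX4 and 92220 to 104508 CPM in WT at 2 weeks, and 46691 to 67755 and 91769 to 104305 CPM at 16 weeks. Myh4 as a percentage of that sum was 38.0 ± 6.11 with DUX4 and 41.2 ± 6.87 in WT at 2 weeks, with overlapping groups. At 16 weeks it was 27.1 ± 7.21 and 52.0 ± 4.32, and the ranges of 17.7 to 35.2 and 46.7 to 55.7 did not overlap. Fewer cells of a type and less RNA per cell cannot be told apart in whole muscle. Of 7 FAP markers 3 (Col1a1, Lum and Col3a1) were higher at 16 weeks and none at 2 weeks, and of 7 macrophage markers 2 (Cd68 and Csf1r) were higher at 2 weeks and 1 (Mrc1) at 16 weeks. The share of all genes called higher was 11.2% at 2 weeks and 14.1% at 16 weeks. The summed FAP marker level was 889 to 1579 CPM with DUX4 and 176 to 692 CPM in WT at 16 weeks, and the summed macrophage level was 85.4 to 214 and 28.6 to 182 CPM. Their part in the fall of Myh4 was not tested.

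Of 10 slow fibre partners 1 rose at 2 weeks, the slow and cardiac calsequestrin Casq2 (175 ± 36.5 against 100 ± 36.4 CPM, adjusted p = 0.0499). That is near the 11.2% of all genes that were higher at 2 weeks. At 16 weeks 0 of the 10 were called, where 14.1% of all genes were higher and 12.5% lower. The median log2 difference of the 10 partners was 0.56 at 2 weeks and 0.12 at 16 weeks. Casq2 itself was 113 ± 43.9 against 70.8 ± 9.54 CPM at 16 weeks and did not pass (adjusted p = 0.110).

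Of 8 genes that accompany Myh3 and Myh8 in newly formed fibres 4 rose at 2 weeks (Ncam1, Tnnt2, Myog and Myl4) and 5 at 16 weeks (Ncam1, Myl4, Chrng, Myog and Mymk). Whether fibres had newly formed in these muscles was not tested. Over all genes tested 11.2% were higher at 2 weeks and 14.1% at 16 weeks. The median log2 difference of the 8 genes was 1.98 at 2 weeks and 2.66 at 16 weeks. Their summed level at 2 weeks overlapped, at 803 to 3398 CPM with DUX4 (median 1111) and 703 to 2975 CPM in WT (median 1196). At 16 weeks it was 500 to 768 CPM with DUX4 and 118 to 412 CPM in WT, without overlap. Myog, the myogenic factor of differentiating myoblasts, was 51.6 ± 19.1 against 12.1 ± 11.1 CPM at 2 weeks (adjusted p = 0.0222) and 66.8 ± 28.2 against 13.8 ± 13.5 CPM at 16 weeks (adjusted p = 0.0185). Myl4, the embryonic light chain, was 58.0 ± 18.3 against 6.86 ± 4.12 CPM at 16 weeks (log2 difference 3.07 ± 0.69, adjusted p = 0.00416). Chrng, the fetal subunit of the acetylcholine receptor, was 20.3 ± 9.80 against 1.12 ± 1.49 CPM at 16 weeks (4.09 ± 1.11, adjusted p = 0.0127). Of 5 satellite cell markers Cdh15 rose at 2 weeks, and Myf5 rose and Itga7 fell at 16 weeks. Among all genes 11.2% rose at 2 weeks, and 14.1% rose and 12.5% fell at 16 weeks.

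Among 13 genes of the thick filament lattice and of myosin folding and turnover, 1 rose (the chaperone Hsp90aa1) and 5 fell at 2 weeks, and 5 fell at 16 weeks. Among all genes 11.2% rose and 6.47% fell at 2 weeks, and 14.1% rose and 12.5% fell at 16 weeks. Titin (Ttn) fell from 13656 ± 1957 to 8178 ± 2374 CPM at 2 weeks and from 18829 ± 5490 to 9072 ± 1626 CPM at 16 weeks (log2 differences -0.74 ± 0.22 and -1.05 ± 0.25; edgeR, adjusted p = 0.0268 and 0.00478). Trim54, a ubiquitin ligase of the sarcomere, fell by 0.62 and 1.02 on the log2 scale. Myom2, an M-band protein of fast fibres, fell at 2 weeks (log2 difference -0.76 ± 0.18, adjusted p = 0.00869).

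Of 15 regulators of myosin genes 1 rose and 2 fell at 2 weeks, where 11.2% of all genes were higher and 6.47% lower, and 1 rose and 6 fell at 16 weeks, where 14.1% and 12.5% were. Eya1, a transcriptional cofactor of the fast fibre programme, rose at both times (55.4 ± 16.1 against 25.0 ± 0.91 CPM and 49.4 ± 10.6 against 29.1 ± 7.99 CPM; edgeR, adjusted p = 0.000689 and 0.0162). Tbx15, a T-box factor of fast glycolytic fibres, fell at both times (log2 differences -0.71 ± 0.19 and -0.83 ± 0.21, adjusted p = 0.0135 and 0.00775). Maf, a large Maf factor that activates Myh4, was 151 ± 38.5 against 290 ± 95.3 CPM at 16 weeks (-0.95 ± 0.26, adjusted p = 0.0125) and was not called at 2 weeks (adjusted p = 0.220). Nfatc1, a factor of the slow programme, also fell at 16 weeks (-0.59 ± 0.14, adjusted p = 0.00537). Six4 was the other regulator that fell at 2 weeks, and Eya4, Mafa and Sox6 were the others that fell at 16 weeks. Of the smooth and nonmuscle heavy chains, nonmuscle Myh9 was 94.5 ± 21.4 against 87.5 ± 11.9 CPM at 2 weeks (adjusted p = 0.739), and smooth muscle Myh11 was 22.6 ± 12.9 against 43.7 ± 17.7 CPM (adjusted p = 0.0989).

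In sorted cells the sarcomeric chains were traces. Myh4 was the most abundant in the CD31+ cells, at 43.9, 55.6, 27.8 and 20.6 CPM in the 4 DUX4 libraries (474 to 1055 counts) and 23.8, 6.99 and 8.39 CPM in the 3 WT libraries (125 to 459 counts). The lowest DUX4 library lay below WT replicate 1. The log2 difference was 1.498 ± 0.47, with an unadjusted p of 0.00559 and an adjusted p of 0.0794 (edgeR). Without CD31WT replicate 1 it passed, with a log2 difference of 2.29 (adjusted p = 0.00786). Of the 6 members tested none was called higher, where 3.72% of all genes were, and none lower, where 1.35% were. Myh4 was the 1 member with an unadjusted p under 0.05, DESeq2 called it (adjusted p = 0.0211) and limma voom called 0.

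In PDGFRa+ cells Myh4 was 8.21, 5.99, 7.22 and 2.49 CPM with DUX4 (29 to 89 counts) and 2.23, 2.03 and 1.43 CPM in WT (26 to 36 counts), without overlap. The log2 difference was 1.65 ± 0.51 (edgeR, unadjusted p = 0.00501, adjusted p = 0.0999). Again none of 6 members was called, against 1.23% of all genes higher and 1.77% lower. Myh4 was the 1 member with an unadjusted p under 0.05, and it was called by DESeq2 (adjusted p = 0.0151) and not by limma voom. Myh1 was 6.59 to 13.98 CPM in CD31+ cells with DUX4 and 2.24 to 5.67 CPM in WT (log2 difference 1.22 ± 0.78, adjusted p = 0.461), and had at most 6 counts in any PDGFRa+ library. Myh2 had 2 to 186 counts in CD31+ libraries. Myh3 was 0.52 to 6.35 CPM in CD31+ cells with DUX4 and 0 to 1.48 CPM in WT, with no call (adjusted p = 0.605). Myh8, Myh6 and Myh13 did not pass the filter on low counts. Myh13 had 1 count in 1 CD31+ DUX4 library and 0 in the other 13 sorted libraries. At the depths of the sorted libraries 3 counts, the number a count of 0 allows, is 0.145 to 0.273 CPM (counting error only).

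Of the 8 fibre markers 1 (Tnnc2), against 3.72% of all genes, was called higher with DUX4 in CD31+ cells. In PDGFRa+ cells 0 were called higher, against 1.23% of all genes. All 8 were detected in each sorted group, and their sum was 390 to 1137 CPM in CD31+ cells with DUX4 and 123 to 294 CPM in WT, and 60.5 to 109 and 19.8 to 89.9 CPM in PDGFRa+ cells, where the groups overlapped. Myh4 as a percentage of that sum was 5.28 ± 1.83 with DUX4 and 5.57 ± 2.58 in WT in CD31+ cells (SD, n = 4 and 3; exact permutation test, 2-sided, p = 0.857). It was 6.91 ± 4.05 and 5.90 ± 4.91 in PDGFRa+ cells (exact p = 0.686), where 4 against 3 libraries cannot go below 0.0571. In every sorted library that percentage was 11.9 or less, and in every whole-muscle library it was 17.7 or more. Whole muscle and sorted cells were made into libraries with different kits, and the cause of this gap was not tested.

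Myl1, a fast light chain, rose in both sorted cell types (69.3 ± 22.5 against 12.0 ± 5.78 CPM in CD31+ cells, adjusted p = 0.0112, and 11.2 ± 3.42 against 2.45 ± 2.23 CPM in PDGFRa+ cells, adjusted p = 0.0498; edgeR). Actn3 and Tnnc2 rose in CD31+ cells too (log2 differences 1.55 ± 0.39 and 1.54 ± 0.37, adjusted p = 0.0284 and 0.0224). Tnnc2 is the same call as the one counted above among the fibre markers. Of 6 tested partners of the developmental chains 2 rose in CD31+ cells, Actc1 (5.58 to 14.5 CPM with DUX4) and Myog (5.33 to 17.8 CPM with DUX4, a mean of 0.0373 CPM in WT). Over all genes 3.72% were higher in CD31+ cells. Smooth muscle Myh11 fell in both cell types, from 220 ± 38.6 to 68.4 ± 17.8 CPM in CD31+ cells (adjusted p = 0.00234) and from 23.1 ± 4.58 to 6.405 ± 2.79 CPM in PDGFRa+ cells (adjusted p = 0.00408). Nonmuscle Myh9 rose in PDGFRa+ cells (112 ± 19.4 against 58.7 ± 12.4 CPM, adjusted p = 0.00750).

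The sorted libraries of CD31+ cells also held transcripts of other cells. Of 7 FAP markers 6 were higher with DUX4, with summed levels of 27416 to 32412 CPM against 9035 to 11959 CPM in WT. Over all genes 3.72% were higher and 1.35% lower in CD31+ cells. The summed level of 9 endothelial markers was 3365 to 4217 and 4551 to 5402 CPM, and none was called. Of 6 mural markers Acta2, Myh11 and Tagln were lower with DUX4 and Pdgfrb was higher. In PDGFRa+ cells 4 of 9 endothelial markers (Pecam1, Vwf, Cdh5 and Egfl7) were lower, against 1.77% of all genes. The summed level of 5 blood markers was 1885 to 9846 CPM with DUX4 and 17214 to 30224 CPM in WT in CD31+ cells, without overlap, and that of 7 macrophage markers was 608 to 1218 and 76.5 to 719 CPM. The part of cell composition in the myosin traces was not tested.

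**Figure D5:**
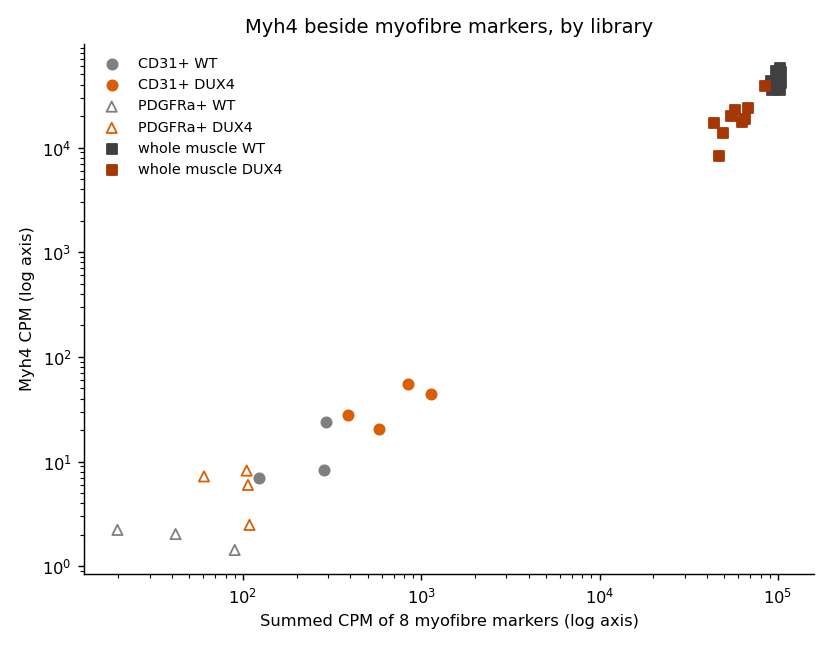
Myh4 CPM against the summed CPM of 8 fibre markers in each of the 32 libraries, both on log axes. Filled circles are CD31+ cells, open triangles PDGFRa+ cells and squares whole muscle, with DUX4 in orange or brown and WT in grey. Sorted libraries lie at 1.43 to 55.6 CPM of Myh4 and whole muscle at 8254 CPM or more.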

How the data were processed

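RNA-seq libraries of 50-base paired-end reads were made from 500 ng of total RNA of whole muscle (KAPA mRNA kit) or from 75000 sorted cells (NEBNext low-input cDNA and Nextera XT), per the labels' protocols. The authors deposited 1 table of estimated counts per gene for each of 32 libraries, with CASAVA 1.8, Salmon 0.6.0 and mm10 named in the submitters' processing notes. Strand settings were not given in the sources used here. Each table held 43035 genes, of which 42459 matched a symbol in GENCODE vM21.

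Counts were rounded to whole numbers. Whole muscle (18 libraries) and sorted cells (14) were fitted apart in edgeR 4.0.16 (R 4.3.3): trimmed mean of M-values, filterByExpr with a minimum of 10 counts, robust quasi-likelihood fits with 1 mean per group, and Benjamini-Hochberg adjustment over all genes tested (threshold 0.05). The fit was tested on simulated data. The SE is the log2 difference divided by the square root of F. DESeq2 1.42.0 and limma 3.58.1 (voom with quality weights) were alternatives, beside other size factors, filters, sets of libraries and refits without 1 library. Shares used counts per kb of the longest coding transcript, over the sum of the 9 genes, and exact permutation tests in scipy 1.17.1. Depths of 6071276 to 20666816 counts put 3 counts at 0.145 to 0.494 CPM.

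The 9 genes, the partner and marker lists and the tests were chosen with earlier results of these data known. All 9 genes are named. For the lists the text describes, it gives the counts called and up to 3 called genes with the smallest p, and genes that touch a result. A called gene of the thick filament list is not reported here. Likeness was the Pearson correlation of log2 CPM over the 18 whole-muscle libraries, among genes averaging 5 CPM or more. Replicate numbers follow accession order. The human DUX4 transgene and mature microRNAs were not analysed here.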

Additional observations from a re-analysis of the deposited data

Results flagged for a closer look

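Within each group of 4 or 5 whole-muscle libraries, a single library was looked for that stood apart from the rest by Dixon's criterion, which chance meets in about 1 in 20 groups. Of 60 groups of values, 10 held such a library.

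In DUX4 muscle of 2 weeks, replicate 5 had Myh2 at 3701 CPM, where the other 4 had 1120 to 1633 CPM, and Myh7b at 2.76 CPM, where the others had 6.98 to 8.24 CPM. Its Myh4 share was 46.5% against 66.4% to 70.4%, and its Myh1 share 43.8% against 21.1% to 26.7%. Replicate 4 of that group had Myh4 at 39006 CPM against 17227 to 22821 CPM. In WT muscle of 2 weeks, replicate 1 had both developmental chains high, with Myh3 at 97.1 CPM against 7.83 to 21.9 CPM and Myh8 at 121 CPM against 21.3 to 46.7 CPM. Replicate 2 had Myh13 at 31.99 CPM against 17.2 to 19.7 CPM, and replicate 3 had Myh6 at 90.5 CPM against 5.23 to 12.5 CPM. In WT muscle of 16 weeks, replicate 4, the library low in Xist, had a Myh2 share of 9.51% against 4.73% to 5.52%.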

How the results depend on the processing

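Of 831 values recomputed under an alternative, 696 kept their direction and side of the threshold. At 2 weeks 3 genes were called, 5 with DESeq2 and 5 with voom (both adding Myh2 and Myh13), 1 without a filter, 0 in replicates 4 and 5 alone and 1 to 3 in refits without 1 library. At 16 weeks 3 were called, 1 without a filter, 1 without WT.16Weeks replicates 1 and 4, 1 without replicate 1 of both genotypes (chosen after seeing the data) and 1 to 3 in refits without 1 library. The 5 calls between times in WT muscle became 1 in a fit of those groups alone and 3 against replicates 4 and 5. The 3 in DUX4 muscle became 5 against replicates 1 to 3. The count of 0 became 1 with DESeq2 in CD31+ and in PDGFRa+ cells, and ranged from 0 to 1 in CD31+ refits without 1 library. At 16 weeks the share difference ran from -32.7 to -23.8 points for Myh4 and from 15.8 to 20.2 for Myh1 without 1 library, where the smallest exact p is 0.0571. Direction reversed only for differences that had not passed. At 2 weeks these were Myh1 in replicates 4 and 5 (0.0056), Myh7 in replicates 1 to 3 (-0.059) and without 1 library (-0.30 to 0.85), Myh6 with DESeq2 (-0.0063), relative log expression factors (-0.0031), in replicates 1 to 3 (-0.062) and without 1 library (-0.24 to 1.5), Myh7b without 1 library (-0.30 to 0.067) and the Myh2 share (-1.75 to 0.0055 points). At 16 weeks they were Myh2 (-0.34 to 0.11), Myh13 (-0.46 to 0.15) and Myh6 (-0.53 to 0.023) without 1 library, Myh7 with voom (0.0011) and Myh7b without WT.16Weeks replicates 1 and 4 (-0.047). The cause was not tested. No paired analysis was done. The replicate numbers follow accession order and pair no libraries, and other numbers in the sample titles were not used. Blocking on set (replicates 1 to 3 or 4 and 5) called 4 genes at 2 weeks. In sorted cells 3 members had too few counts to test.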
